A study of Homo sapiens with 9 samples.

Results

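The genes described here are 10 transcripts that cells make when the RAS-RAF-MEK-ERK kinase cascade is active, most of which damp that cascade in return. They are the phosphatases DUSP1, DUSP4, DUSP5 and DUSP6, the Sprouty and Spred genes SPRY2, SPRY4 and SPRED1, the ETS transcription factors ETV4 and ETV5, and PHLDA1. They were chosen by name, with earlier results of these data known. Counts of these genes given below are therefore descriptions and no test of the group. Each of the 10 was found once among the 60649 genes of the count table. All 10 passed the filter on low counts that left 14274 genes for testing. RNA sequencing covered MDA-MB-231, an established human triple-negative breast cancer line, in 3 groups of 3 replicate libraries. The control cells held the vector pLKO-GFP, and the other groups held short hairpin RNAs against the aryl hydrocarbon receptor gene AHR, labelled shAHR#2 and shAHR#3. All 3 groups were made by lentiviral infection, selected with puromycin as pools of surviving cells, grown in DMEM with fetal bovine serum, and labelled as proliferating. No separate cultures are named for the replicates, so the p-values measure the spread between these libraries, which may be technical.

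ERK is switched on by phosphorylation through RAS, RAF and MEK, and then drives transcription through ETS and AP-1 factors. Among the genes it induces are its own brakes. DUSP5 and DUSP6 remove the activating phosphates from ERK, in the nucleus and the cytoplasm respectively, DUSP1 and DUSP4 are nuclear phosphatases that also act on JNK and p38, and Sprouty and Spred proteins act upstream, at the level of receptors, RAS and RAF. ERK phosphorylation was not measured in these libraries, and only RNA levels are reported.

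Libraries held 15991396 to 20374460 counted reads, and the 10 genes were counted at 398 to 24460 reads per library, so counting error was small for each. Levels are given in CPM, the count of a gene relative to all counted reads of its library after TMM scaling, and differences as log2 fold changes with standard errors (SE) and, where a gene was not called, 95% intervals. All differences come from the quasi-likelihood test of edgeR. A gene was called at an adjusted p (Benjamini-Hochberg, over all 14274 genes) under 0.05. AHR lay at 114 to 121 CPM with pLKO-GFP, at 40.4 to 42.5 with shAHR#2 and at 44.5 to 52.1 with shAHR#3. KRT8 and KRT18, epithelial keratins, were at 275 CPM or more in every library, and KRT19 at 96.5 to 177. CDH1, which encodes E-cadherin, was at 0.699 to 1.02 CPM in the control and at most 4.59 elsewhere. EPCAM, also epithelial, was at 5.26 to 7.15 CPM over all libraries. Among markers of mesenchymal-like breast lines, CAV1 and MSN were at 680 CPM or more in every library. VIM was at 2620 to 2660 CPM with pLKO-GFP, 3840 to 3950 with shAHR#2 and 3300 to 3370 with shAHR#3. CD44 was at 801 to 825, 685 to 698 and 566 to 590. The 8 markers of leukocytes, endothelium and fibroblasts summed to 8.34 to 11 CPM with pLKO-GFP, 23 to 23.7 with shAHR#2 and 24 to 27.6 with shAHR#3, with CD3E at 0 throughout and DCN at no more than 1 count. Most of that sum was PECAM1 and COL1A1. Of the 4 markers that were tested, shAHR#2 libraries had 3 higher and 1 lower, shAHR#3 libraries had 3 higher and none lower, and none differed by call between the constructs. The part of these markers in the results below was not tested. In bulk RNA, a change in the share of cells that express a gene and a change in the RNA per cell cannot be told apart.

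With shAHR#2, 7 of the 10 feedback genes were higher than with pLKO-GFP and none was lower. Of all genes tested, 32.6% were called higher and 65.8% in either direction. The 7 were DUSP5, DUSP6, ETV5, DUSP4, PHLDA1, ETV4 and SPRY2, in order of their log2 fold changes. With shAHR#3, 8 of the 10 were higher and none was lower, against 26.9% of all genes called higher and 54.4% in either direction. These 8 were DUSP1, DUSP4, ETV5, DUSP5, DUSP6, ETV4, SPRY4 and PHLDA1. The comparisons share the pLKO-GFP libraries and are therefore not independent of each other. In each comparison, the genes that were called were also those whose 3 shAHR libraries all lay above the 3 control libraries, a separation in that direction shown by 33.8% of all genes with shAHR#2 and 29.2% with shAHR#3 (68.2% and 58.7% in either direction).

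The median log2 fold change of the 10 genes was 0.37 with shAHR#2 and 0.30 with shAHR#3, and the corresponding medians over all genes tested were -0.003 and -6.9e-05. The changes were modest. No gene of the group reached a log2 fold change of 1, and the largest were 0.79 for DUSP5 with shAHR#2 and 0.92 for DUSP1 with shAHR#3. By size alone they were near the rest of the transcriptome, since the median absolute log2 fold change was 0.37 for the 10 genes and 0.32 for all genes with shAHR#2, and 0.30 and 0.23 with shAHR#3. Summed over the 10 genes, the level was 2350 to 2453 CPM in the control libraries, 3252 to 3293 with shAHR#2 and 2936 to 2956 with shAHR#3. DUSP4 and PHLDA1 made up 65.8% to 66.9% of that sum in every library.

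**Figure D1:**
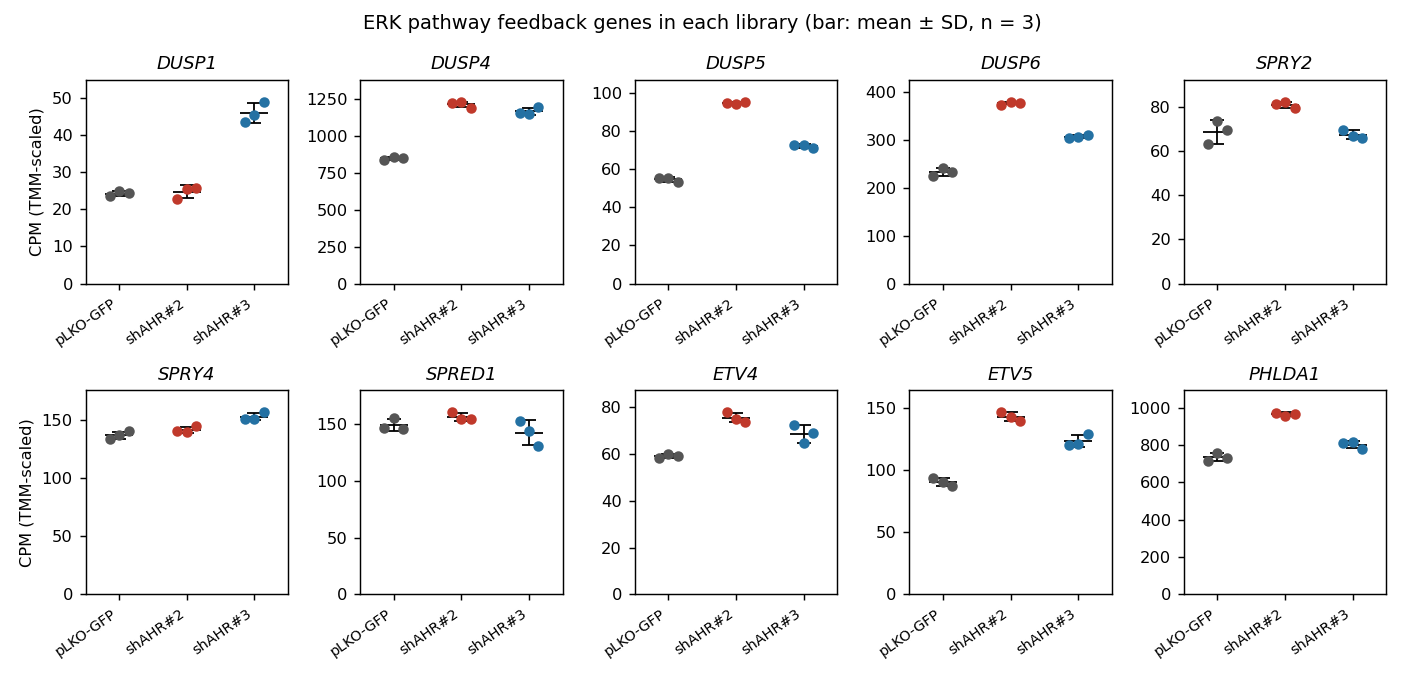
CPM after TMM scaling (vertical axis, from 0, with its own range for each gene) of the 10 ERK feedback genes in the 3 libraries of each group; points are libraries and black bars the mean ± SD. DUSP1 has its shAHR#2 libraries at the control level and its shAHR#3 libraries at 43.6 to 49.0 CPM. SPRY4 shows the same order at a smaller size, whereas DUSP5, DUSP6, ETV5 and PHLDA1 are highest with shAHR#2.

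DUSP6 encodes the cytoplasmic phosphatase that is most selective for ERK. Its gene lies on chromosome 12 of GRCh38, from 89347235 to 89352501, on the minus strand. DUSP6 was at 225, 241 and 233 CPM in the control libraries, at 374, 379 and 378 with shAHR#2, and at 305, 305 and 310 with shAHR#3. The 3 groups did not overlap, and each shAHR library was above each control library. The log2 fold change was 0.69 (SE 0.03, adjusted p = 1.55e-22) with shAHR#2, a rise of 61.6%, and 0.39 (SE 0.03, adjusted p = 8.81e-15) with shAHR#3, a rise of 31.4%. An unnamed antisense transcript of the annotation shares 1105 exon bases with DUSP6, but it was counted at only 2 to 15 reads per library.

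DUSP5, the inducible phosphatase that holds ERK in the nucleus, gave nearly the same pattern at a lower level. It lies on chromosome 10, from 110497907 to 110511533, on the plus strand. DUSP5 was at 55.6, 55.5 and 53.3 CPM in the control, 95, 94.3 and 95.7 with shAHR#2 and 72.7, 72.9 and 71.4 with shAHR#3. The groups were again separate, with shAHR#3 between the control and shAHR#2. The log2 fold changes were 0.79 (SE 0.04, adjusted p = 1.97e-19) and 0.40 (SE 0.04, adjusted p = 1.21e-10).

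DUSP4, a nuclear phosphatase of ERK and JNK, was the most abundant of the phosphatases. Its gene is on chromosome 8, from 29333064 to 29350684, on the minus strand. Control libraries held 834, 856 and 852 CPM of DUSP4, shAHR#2 libraries 1219, 1228 and 1191, and shAHR#3 libraries 1157, 1145 and 1194. Each shAHR library exceeded the controls, while the shAHR#2 and shAHR#3 libraries overlapped. This was a log2 fold change of 0.52 (SE 0.03, adjusted p = 5.15e-20) with shAHR#2 and 0.46 (SE 0.03, adjusted p = 4.61e-18) with shAHR#3.

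DUSP1, an immediate early phosphatase that acts on p38 and JNK as well as ERK, did not follow the other phosphatases. It lies on chromosome 5, from 172768096 to 172771195, on the minus strand. Its level was 23.5, 24.9 and 24.3 CPM in the control libraries, 22.8, 25.6 and 25.9 with shAHR#2, and 43.6, 45.4 and 49.0 with shAHR#3. The shAHR#2 libraries overlapped the control, and the lowest shAHR#3 library was above every library of the other groups. The log2 fold change with shAHR#2 was 0.03 (SE 0.07, adjusted p = 0.768), with a 95% interval from -0.11 to 0.16. With shAHR#3 it was 0.92 (SE 0.06, adjusted p = 2.75e-15), a rise of 89.8%.

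The change in balance between these phosphatases can be read within each library, without any scaling between libraries. The ratio of DUSP6 to DUSP1 counts was 9.56 to 9.71 in the control libraries, 14.6 to 16.4 with shAHR#2 and 6.32 to 7.00 with shAHR#3. The ratio of DUSP5 to DUSP1 counts went the same way, from 2.19 to 2.37 in the control to 3.69 to 4.17 and 1.46 to 1.67. The ratio of DUSP4 to DUSP6 counts moved less, within 3.15 to 3.85 over all 9 libraries, but the groups were separate. It was 3.545 to 3.713 in the control, 3.153 to 3.262 with shAHR#2 and 3.757 to 3.853 with shAHR#3.

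Promoter windows of 250 bases before to 50 bases after the RefSeq start were available for 6 of the 10 genes (DUSP1, DUSP6, SPRY2, SPRY4, SPRED1 and PHLDA1). They are given in build GRCh38.p14 for DUSP1, whose difference between the constructs was the largest of the 10 genes, at chr5:172771146-172771445 on the minus strand, and for DUSP6 and PHLDA1, which were higher with each construct and hold the core of the AHR response element, at chr12:89352452-89352751 and chr12:76031727-76032026, both on the minus strand. Capitals mark matches on either strand to any of the motifs searched, which were the AHR response element core GCGTG, the ETS core CCGGAA, the cyclic AMP response element core TGACGT, the AP-1 site TGANTCA and the CArG box of serum response factor.
DUSP1: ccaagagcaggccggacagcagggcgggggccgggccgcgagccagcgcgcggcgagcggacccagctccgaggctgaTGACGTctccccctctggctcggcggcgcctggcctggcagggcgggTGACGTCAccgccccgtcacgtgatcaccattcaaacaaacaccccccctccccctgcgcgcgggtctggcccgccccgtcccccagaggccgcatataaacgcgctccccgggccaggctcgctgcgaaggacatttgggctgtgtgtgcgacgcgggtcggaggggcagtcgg
DUSP6: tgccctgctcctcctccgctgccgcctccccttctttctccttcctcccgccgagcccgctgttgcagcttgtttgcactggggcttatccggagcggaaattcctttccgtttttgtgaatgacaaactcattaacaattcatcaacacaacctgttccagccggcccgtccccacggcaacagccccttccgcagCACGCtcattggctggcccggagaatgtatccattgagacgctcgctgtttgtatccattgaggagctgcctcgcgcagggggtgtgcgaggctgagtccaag
PHLDA1: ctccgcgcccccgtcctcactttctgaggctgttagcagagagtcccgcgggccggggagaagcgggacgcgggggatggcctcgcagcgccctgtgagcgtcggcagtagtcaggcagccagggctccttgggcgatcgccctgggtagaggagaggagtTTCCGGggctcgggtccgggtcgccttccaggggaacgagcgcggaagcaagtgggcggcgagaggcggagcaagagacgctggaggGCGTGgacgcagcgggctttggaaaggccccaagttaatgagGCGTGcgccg
The DUSP1 window held 3 matches to TGACGT, beginning 172, 125 and 123 bases before the start, of which the last pair overlap on opposite strands. This motif was present in 8.32% of 27305 promoter windows of the same length. DUSP6 held GCGTG once, 53 bases before the start, and PHLDA1 held it at 2 bases before the start and again from base 41 of the transcript. That core is common, with a match in 36.3% of all windows, and it was present in 2 of the 6 windows here. CCGGAA was found in PHLDA1 and SPRY2 and in 17.6% of all windows. Neither the AP-1 site (7.76% of all windows) nor the CArG box (1.29%) was matched in any of the 6. SPRY4 and SPRED1 matched none of the 5 motifs in these windows. The SPRY4 window, from 142324198 to 142324497 on the minus strand, lay inside the annotated gene. That gene begins at 142326455, and the window does not cover this start. Such matches are descriptions of the letters and carry no information on factor binding in these cells.

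Among the Sprouty and Spred genes the changes were small. SPRY2, an adaptor that restrains receptor signalling to RAS, lies on chromosome 13, from 80335976 to 80341126, on the minus strand. SPRY2 was at 63.0, 73.5 and 69.5 CPM in the control, 81.1, 82.3 and 79.6 with shAHR#2 and 69.6, 66.7 and 65.7 with shAHR#3. All shAHR#2 libraries were above the control, whose 3 libraries were spread more widely, relative to their mean, than those of any of the other 9 genes, while the shAHR#3 libraries lay within the control range. SPRY2 rose by a log2 fold change of 0.24 (SE 0.05, adjusted p = 2.49e-05) with shAHR#2. With shAHR#3 it was -0.03 (SE 0.05, adjusted p = 0.602), with a 95% interval from -0.12 to 0.06.

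SPRY4, a relative of SPRY2 that is a common marker of ERK output, was called with the other construct. It lies on chromosome 5, from 142310427 to 142326455, on the minus strand. SPRY4 was at 134, 137 and 141 CPM in the control libraries, 141, 140 and 145 with shAHR#2 and 151, 152 and 157 with shAHR#3. Control and shAHR#2 libraries overlapped, and the shAHR#3 libraries were above both. The log2 fold change was 0.05 (SE 0.03, adjusted p = 0.196, 95% interval -0.02 to 0.11) with shAHR#2 and 0.16 (SE 0.03, adjusted p = 6.85e-05) with shAHR#3. SPRY4-AS1, an antisense transcript with no exon base in common with SPRY4, was counted at 18 to 33 reads per library.

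SPRED1, which brings the RAS inactivator neurofibromin to the membrane, lies on chromosome 15, from 38252836 to 38357249, on the plus strand. It was at 147, 155 and 146 CPM in the control, 161, 155 and 154 with shAHR#2 and 153, 144 and 131 with shAHR#3. Both groups overlapped the control. The log2 fold changes were 0.07 (SE 0.04, adjusted p = 0.127, 95% interval -0.01 to 0.15) and -0.07 (SE 0.04, adjusted p = 0.142, 95% interval -0.14 to 0.01). Neither was called in the fit of all 9 libraries, but the first was called as higher when only the groups compared were fitted (adjusted p = 0.0302) or without pLKO-GFP replicate 2 (0.0498), and the second as lower without shAHR#3 replicate 1 (log2 fold change -0.12, adjusted p = 0.0150).

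The transcription factors ETV4 and ETV5 belong to the PEA3 group of ETS proteins, which carry the transcriptional response to ERK. ETV5 lies on chromosome 3, from 186046314 to 186110318, and ETV4 on chromosome 17, from 43527844 to 43579620, both on the minus strand. ETV5 was at 94.0, 90.8 and 87.3 CPM in the control, 147, 143 and 140 with shAHR#2 and 120, 121 and 129 with shAHR#3, so that the 3 groups were separate. The log2 fold change of ETV5 was 0.66 (SE 0.04, adjusted p = 4.07e-18) with shAHR#2 and 0.45 (SE 0.04, adjusted p = 6.05e-13) with shAHR#3.

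ETV4 was at 58.4, 60.1 and 59.0 CPM in the control, 77.9, 75.1 and 73.8 with shAHR#2 and 72.3, 64.7 and 69.0 with shAHR#3. Its shAHR libraries were above the control in each group. The log2 fold changes of ETV4 were 0.35 (SE 0.04, adjusted p = 1.02e-08) and 0.21 (SE 0.04, adjusted p = 9.33e-05). ETV4 shares 68 exon bases with DHX8, an RNA helicase gene on the opposite strand, whose level was 93.5 to 97.4 CPM in the control and 114 to 124 CPM over the shAHR libraries. The strand setting of the authors' counting is not given in the sources used here, so reads in the shared bases are uncertain for ETV4.

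ETV5 also overlaps DGKG, a diacylglycerol kinase gene on the same strand, by 164 exon bases. DGKG was counted at 0, 0 and 1 reads in the control libraries, at 24, 17 and 35 with shAHR#2 and at 27, 27 and 40 with shAHR#3. Set against a floor of 3 reads per control library, the mean level of DGKG in the shAHR#2 group was 9.75-fold that floor. In the shAHR#3 group the mean level was 10.03-fold that floor. Against the control counts the adjusted p was 1.12e-09 with shAHR#2 and 9.16e-10 with shAHR#3. The folds put the control at the floor, above its counts. They allow for neither counting error nor spread in the shAHR libraries. DGKG reads were few beside the 1665 or more counted on ETV5 in each library.

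PHLDA1, an intracellular protein whose transcript is widely used as a readout of ERK activity, lies on chromosome 12, from 76025447 to 76031776, on the minus strand. It was at 716, 759 and 733 CPM in the control, 975, 956 and 969 with shAHR#2 and 811, 820 and 780 with shAHR#3. The groups were separate, though the lowest shAHR#3 library was only just above the highest control library. In log2 terms the rise was 0.39 (SE 0.03, adjusted p = 5.98e-16) with shAHR#2 and 0.13 (SE 0.03, adjusted p = 9.56e-05) with shAHR#3. An antisense gene, PHLDA1-AS1, shares 553 exon bases with it and was counted at 21 to 30 reads per library.

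Comparing levels between genes needs their exon length, so RPKM (CPM per kilobase of annotated exon) was used for that purpose. In the control, PHLDA1 was highest at 125 ± 3.60 RPKM (SD, n = 3), followed by DUSP4 at 117 ± 1.60 and DUSP6 at 60.4 ± 2.18. DUSP5, SPRY2 and SPRY4 came next, at 21.6 ± 0.502, 21.4 ± 1.65 and 21.0 ± 0.485 RPKM, and neighbours in this trio overlapped. SPRED1, ETV4 and ETV5 followed at 19.3 ± 0.672, 16.8 ± 0.249 and 15.7 ± 0.583, and DUSP1 was lowest at 12 ± 0.344 RPKM. With shAHR#2 DUSP1 remained last, at 12.3 ± 0.842 RPKM. With shAHR#3 it was at 22.9 ± 1.38 RPKM, sixth in order and overlapping its neighbours SPRY4 and ETV5. DUSP4 was at 167 ± 2.66 and 160 ± 3.52 RPKM and PHLDA1 at 164 ± 1.67 and 136 ± 3.49 RPKM with shAHR#2 and shAHR#3. The libraries of these leading genes overlapped with shAHR#2 and did not overlap with shAHR#3. The lengths count all annotated exons of a gene, and the exons used in these cells were not measured. The spread of the libraries does not cover error in the lengths, so the order between genes is approximate.

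The constructs were also compared directly. Of the 10 genes, 7 were lower with shAHR#3 than with shAHR#2 and 2 were higher, against 20.4% and 21.9% of all genes tested and 42.3% in either direction. The 7 were DUSP5, DUSP6, SPRY2, PHLDA1, ETV5, ETV4 and SPRED1, and the 2 were DUSP1 and SPRY4. The largest differences were 0.90 (SE 0.06, adjusted p = 1.74e-14) for DUSP1 and -0.39 (SE 0.04, adjusted p = 8.82e-11) for DUSP5. For the 9 genes called, the 3 shAHR#3 libraries did not overlap the 3 shAHR#2 libraries, a separation found in 49.6% of all genes, with shAHR#3 above in 25.5%. DUSP4 differed by -0.06 (SE 0.02, adjusted p = 0.0637, 95% interval -0.11 to -0.01), and DESeq2 called the same difference (-0.06, adjusted p = 0.0205). Some of the smaller differences rested on single libraries. ETV4 at -0.14 (adjusted p = 0.00900) was no longer called without shAHR#2 replicate 1 (-0.12, adjusted p = 0.0726) or shAHR#3 replicate 2 (-0.10, adjusted p = 0.0899). SPRED1 at -0.14 (adjusted p = 0.00480) was not called without shAHR#3 replicate 3 (-0.08, adjusted p = 0.0789).

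**Figure D2:**
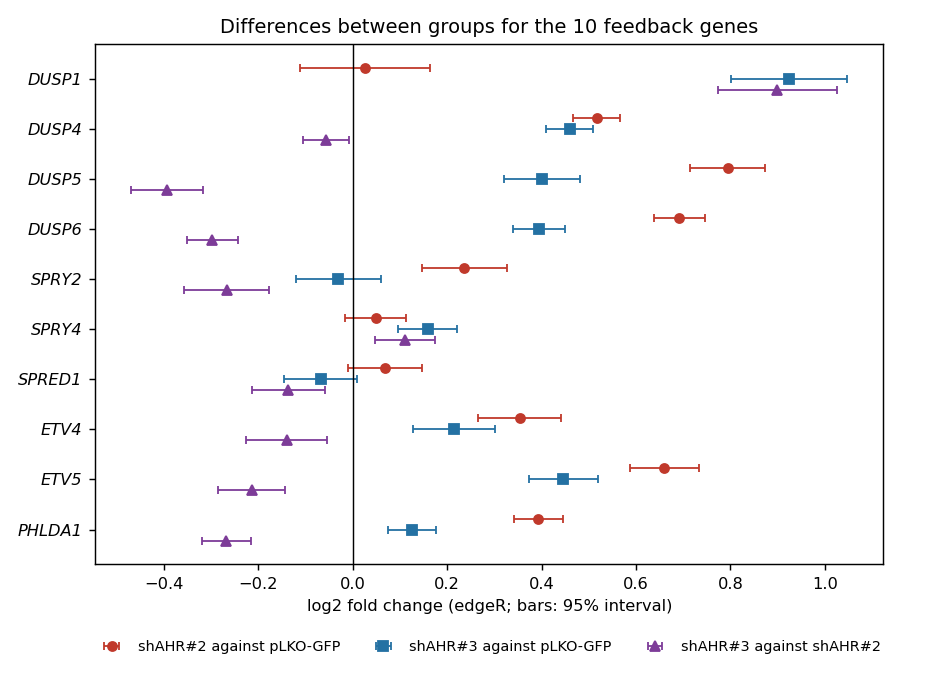
Log2 fold changes (horizontal axis) of the 10 feedback genes for shAHR#2 against pLKO-GFP (circles), shAHR#3 against pLKO-GFP (squares) and shAHR#3 against shAHR#2 (triangles), with bars for 95% intervals from the edgeR fit. Triangles lie left of 0 for 8 of the genes and right of it for DUSP1 and SPRY4, and the DUSP1 circle sits near 0 while its square is at 0.92.

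Likeness of pattern was measured as the root mean square distance between log2 CPM values over the 9 libraries, after centring each gene on its own mean. Among the feedback genes, DUSP5 and DUSP6 were closest (0.0572), ETV5 was next to DUSP6 (0.0616), and ETV4 and PHLDA1 were nearest to each other (0.0729). DUSP1 was the farthest gene from each of the other 9, at 0.368 to 0.533. Among 11823 other genes above a minimal abundance (mean log2 CPM 1), those nearest to DUSP6 were MICAL2 (0.0298), FOSL2 (0.0302) and TPI1 (0.0309). MICAL2 encodes an actin-oxidizing enzyme, FOSL2 an AP-1 subunit and TPI1 a glycolytic enzyme. Their log2 fold changes were 0.69, 0.72 and 0.72 with shAHR#2 and 0.40, 0.44 and 0.37 with shAHR#3. The distances describe these 9 libraries only.

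DUSP1 and SPRY4 lie on chromosome 5, whose 656 tested genes had a median log2 fold change of -0.48 with shAHR#2 and -0.26 with shAHR#3. DUSP1 was 0.50 above that median with shAHR#2 and 1.18 above it with shAHR#3, higher than 85.2% and 98% of the chromosome's genes. SPRY4 was 0.53 and 0.41 above it. In the 1 Mb on either side of the start of DUSP1, 13 other genes were tested. With shAHR#2, 10 of these were lower and 1 higher, and 2 had a larger log2 fold change than DUSP1. With shAHR#3, 7 were lower and 1 higher, and none had a larger log2 fold change than DUSP1. Between the constructs, 7 of the 13 were higher with shAHR#3 and 0 lower, and 3 had a larger log2 fold change than DUSP1. DUSP1 was there 0.69 above the chromosome median and 0.70 above the median of these neighbours. Near SPRY4, 16 of 29 tested genes were lower and none was higher with shAHR#2, while 10 were lower and 1 higher with shAHR#3. Over all genes tested, 33.2% were lower and 32.6% higher with shAHR#2, and 27.5% and 26.9% with shAHR#3. Between the constructs these shares were 20.4% and 21.9%. DUSP5 was also on a chromosome with a negative median, -0.32 with shAHR#2 and -0.15 with shAHR#3 over 573 genes of chromosome 10. In contrast, DUSP6 and PHLDA1 share chromosome 12, where the median of 794 genes was 0.22 and 0.17. PHLDA1 was 0.17 above it with shAHR#2 and below it, at a difference of -0.05, with shAHR#3. Between the constructs, SPRY4 was -0.10 relative to the chromosome 5 median, which was itself 0.21 higher with shAHR#3. SPRY2, higher with shAHR#2, was -0.37 relative to the median of its 2 tested neighbours there. Neighbours of DUSP4, ETV4, ETV5 and PHLDA1 also had positive medians with shAHR#2, and less those medians the values of these genes were 0.23, 0.18, 0.35 and 0.070. The part of such regional shifts in the results above was not tested.

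**Figure D3:**
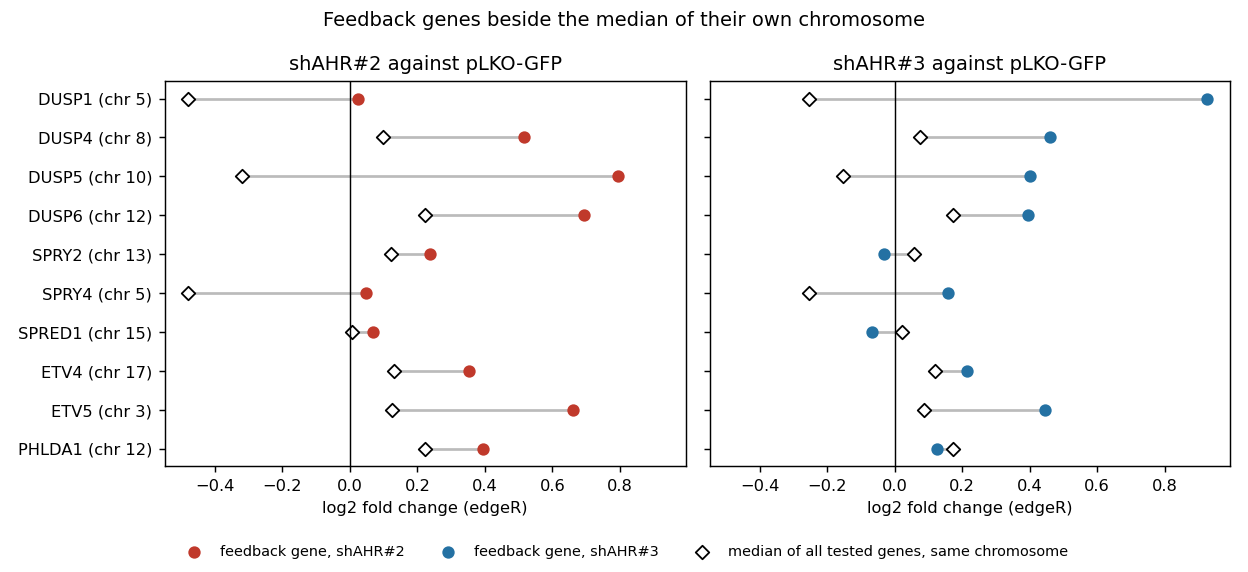
Log2 fold change (horizontal axis) of each feedback gene (filled circles) and the median of all tested genes on the same chromosome (open diamonds), for shAHR#2 and shAHR#3 against pLKO-GFP. With shAHR#2 every feedback gene lies to the right of its chromosome's median, and with shAHR#3 SPRY2, SPRED1 and PHLDA1 lie to the left of it.

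Other genes of the pathway were taken from 5 lists, which were also chosen with earlier results of these data known. Of the remaining MAPK phosphatases, 4 of 6 were tested, and they differed from each other. DUSP10 and DUSP16, which act mainly on JNK and p38, were lower with shAHR#2, at -1.01 (SE 0.07, adjusted p = 5.73e-16) and -1.06 (SE 0.24, adjusted p = 2.22e-04) on the log2 scale, while with shAHR#3 their values were -0.11 and 0.21, neither called (adjusted p = 0.105 and 0.402), although DUSP10 was called lower without shAHR#3 replicate 3 (-0.15, adjusted p = 0.0478). The direct difference was 0.89 (SE 0.07, adjusted p = 7.61e-14) for DUSP10 and 1.27 (SE 0.24, adjusted p = 2.83e-05) for DUSP16. DUSP16 was at a low level (average log2 CPM 1.40). Where a mean of at least 50 counts was required, 1 gene of this list was lower with shAHR#2, in place of 2. DUSP7, an ERK phosphatase, was 0.19 higher with shAHR#2 (adjusted p = 0.00252) and at 0.10 with shAHR#3 (adjusted p = 0.122). DUSP9 was counted at only 3, 5 and 2 reads in the control and rose to 22 to 37 reads with shAHR#2 and 29 to 46 with shAHR#3 (adjusted p = 5.81e-08 and 4.60e-09). DUSP2 and DUSP8, at 9 reads or fewer in every library, were not tested.

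In the Sprouty, Spred and PEA3 families, 4 of 5 further genes were tested. SPRED2, a relative of SPRED1, rose with each construct, from 74.5 ± 2.42 CPM to 111 ± 2.63 and 96.5 ± 5.52 (SD, n = 3), log2 fold changes of 0.58 (adjusted p = 4.95e-15) and 0.37 (adjusted p = 7.63e-10). SPRY1 was called in opposite directions, at -0.16 in the shAHR#2 group (adjusted p = 4.70e-04) and at 0.22 in the shAHR#3 group (adjusted p = 5.50e-06). ETV1, the PEA3 relative of ETV4 and ETV5, was at 0.01 with shAHR#2 (adjusted p = 0.692) and fell by 0.10 with shAHR#3 (adjusted p = 0.00458), a call lost without pLKO-GFP replicate 2 (adjusted p = 0.0641) or shAHR#3 replicate 1 (0.0540). SPRED3 was 0.24 higher with shAHR#2 (adjusted p = 0.0276) and at -0.13 with shAHR#3 (adjusted p = 0.242). The former call of SPRED3 was lost without any 1 of pLKO-GFP replicates 2 and 3 and shAHR#2 replicates 1 and 2 (adjusted p = 0.0513 to 0.221), and also under DESeq2.

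All 19 genes of the RAS-RAF-MEK-ERK cascade itself were tested. With shAHR#2 11 were higher and 4 lower, with a median log2 fold change of 0.24, and with shAHR#3 10 rose and 4 fell (median 0.18). Over all genes the shares were 32.6% higher and 33.2% lower for shAHR#2, and 26.9% and 27.5% for shAHR#3. The 4 that were lower with shAHR#3 became 2 without pLKO-GFP replicate 2 or shAHR#3 replicate 3, where NRAS and BRAF lost their calls. RPS6KA3, which encodes the ERK-activated kinase RSK2, rose by 0.81 in log2 units in the shAHR#2 group and 0.45 in the shAHR#3 group (adjusted p = 1.87e-21 and 1.76e-13). KSR1, a scaffold of the cascade, rose by 0.38 and 0.45 (adjusted p = 0.00152 and 1.87e-04), and the adaptor GRB2 by 0.33 and 0.30 (adjusted p = 1.22e-11 and 3.35e-10). The RAS exchange factor SOS1 fell by 0.57 and 0.32 (adjusted p = 1.08e-12 and 3.59e-07), and ARAF fell by 0.36 and 0.18 (adjusted p = 1.66e-06 and 0.00609).

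Of 10 other negative regulators of RAS and ERK, 4 rose and 2 fell in the shAHR#2 group (median 0.05), and 3 rose and 3 fell in the shAHR#3 group (median 0.01). The 6 called in each comparison were near the share of all genes called in either direction, 65.8% and 54.4%. Some of these calls were weak: PEBP1, higher with shAHR#2, was not called without any 1 of 5 of the 6 libraries compared (adjusted p = 0.0551 to 0.213), nor RASSF1, higher with shAHR#3, without any 1 of 4 of the 6 (0.0518 to 0.107). ERRFI1 (MIG6), a feedback inhibitor of the EGF receptor, changed most in this list. Control libraries averaged 394 ± 4.69 CPM of ERRFI1, against 1105 ± 17.2 for shAHR#2 and 780 ± 13.7 for shAHR#3 (SD, n = 3), giving log2 fold changes of 1.49 (adjusted p = 1.75e-34) and 0.99 (adjusted p = 3.89e-28). The adaptor SH2B3 rose by 0.99 and 0.47 (adjusted p = 3.79e-28 and 2.01e-17). The RAS GTPase activator RASAL2 fell by 0.65 and 0.30 (adjusted p = 1.61e-17 and 8.39e-09), and the ubiquitin ligase CBL fell by 0.22 and 0.27 (adjusted p = 5.54e-07 and 1.29e-08).

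Finally, 13 of 14 other genes commonly induced by ERK were tested, with IER3 listed at 0 in every library. With shAHR#2 10 of the 13 were higher and 2 lower (median 0.60), and with shAHR#3 8 were higher and 1 lower (median 0.23), against 32.6% and 26.9% of all genes called higher and 65.8% and 54.4% called in either direction. EMP1, a membrane protein gene, rose from 526 ± 7.89 CPM to 1383 ± 24.9 and 855 ± 26.5 (SD, n = 3), or 1.39 and 0.70 in log2 units (adjusted p = 6.83e-33 and 5.26e-23). PLAUR, the urokinase receptor gene, rose by 1.33 and 0.67 (adjusted p = 8.98e-25 and 7.02e-15) and PHLDA2 by 0.64 and 0.44 (adjusted p = 1.49e-06 and 4.60e-04). The uridine phosphorylase gene UPP1 fell by 0.66 and 0.27 (adjusted p = 3.15e-10 and 7.84e-04). FOS, outside the rule for named genes and chosen after its values were seen, was at a low level (average log2 CPM 1.77). It was called in opposite directions, at -1.37 (SE 0.22) in the shAHR#2 group and at 0.60 (SE 0.17) in the shAHR#3 group (adjusted p = 1.40e-06 and 0.00266). FOS was 1.97 higher with shAHR#3 in the direct comparison (SE 0.21, adjusted p = 4.27e-10). In that direct comparison 8 of the 13 were lower with shAHR#3 and 3 higher, so most of the list differed in the other direction from FOS. Of all genes tested, 20.4% were lower and 21.9% higher in the direct comparison, 42.3% in either direction. Of the 8, 3 are given here. EGR1, an immediate early gene, differed by -0.45 (adjusted p = 0.00547), FOSL1 by -0.57 (adjusted p = 7.13e-20) and MYC by -0.18 (adjusted p = 1.43e-04), all also named after their values were seen.

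**Figure D4:**
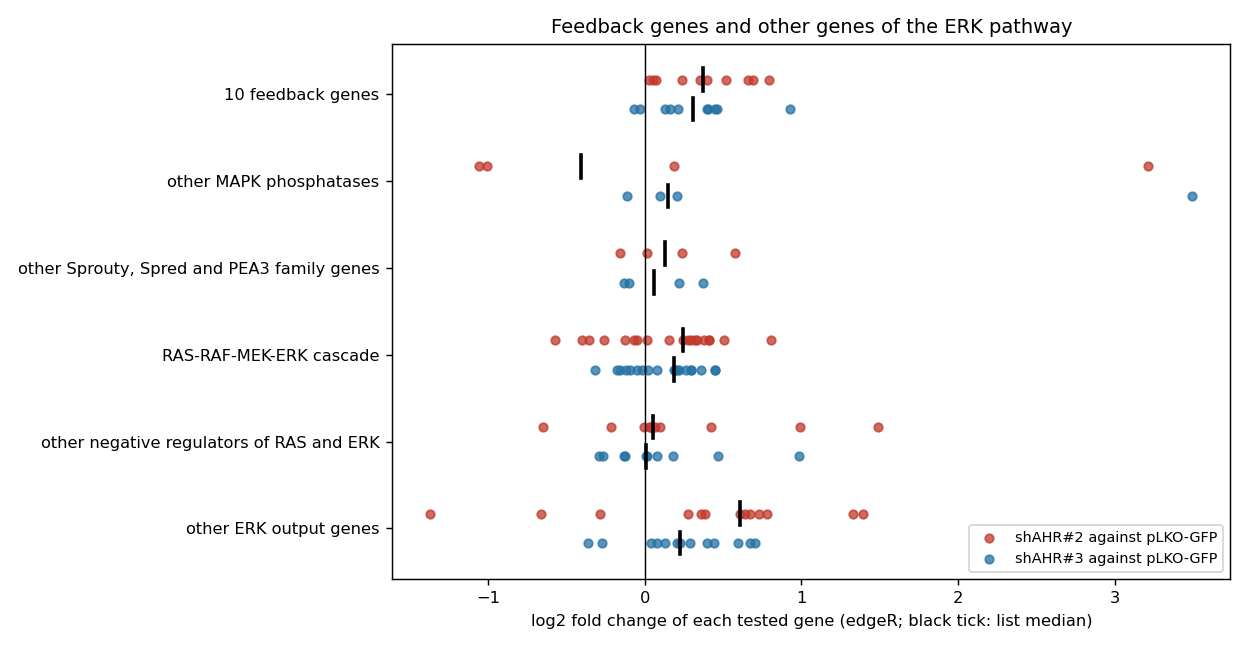
Log2 fold changes (horizontal axis) of the 10 feedback genes and of each tested gene in 5 lists of ERK pathway genes, for shAHR#2 (red) and shAHR#3 (blue) against pLKO-GFP, with black ticks at list medians. The median of the other ERK output genes with shAHR#2 (0.60) lies farthest right, and DUSP9, with few control reads, is the point beyond 3.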

How the data were processed

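RNA from 9 libraries, made with a stranded mRNA kit, was sequenced single-end. Per the labels and the study's methods, the authors used STAR for alignment to GRCh38.p13, and the deposited values are raw counts, whole numbers that were not normalized. The submitters' processing notes also name FastQC and featureCounts (Subread). Versions, annotation release and strand setting are not given in the sources used here.

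Counts were analysed with R 4.3.3, edgeR 4.0.16 and Python 3.11.15. filterByExpr (minimum count 10, minimum total 15) left 14274 genes, scaled by TMM and fitted once over 9 libraries with glmQLFit, without a block. Each SE is the absolute log2 fold change over the square root of F. DESeq2 1.42.0 was an alternative, as the authors used it. The script was tested on simulated counts. Between replicates, the chi-square over its degrees of freedom was 1.75 to 4.15, above sampling noise. Positions and exon lengths are from GENCODE release 44, and promoter sequences from RefSeq.

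The genes and lists were chosen with earlier results of these data known. Named genes were the 10 feedback genes, AHR, up to 3 rises and 3 falls per list called alike with both constructs (mean log2 CPM 1 or more), the 3 genes nearest to DUSP6 and genes that overlap a feedback gene. Members of lists with under 5 tested genes, the untested IER3, and FOS, EGR1, FOSL1 and MYC are named beyond that rule. So are NRAS, BRAF, PEBP1 and RASSF1, for calls that were lost without single libraries.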

Additional observations from a re-analysis of the deposited data

Results flagged for a closer look

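Direct comparison of the constructs by edgeR's quasi-likelihood test singled out 9 of the 10 feedback genes, because their changes against the same control differed between shAHR#2 and shAHR#3 beyond the spread of the libraries. Given as shAHR#3 minus shAHR#2 on the log2 scale, the difference was 0.90 for DUSP1 and 0.11 for SPRY4. It was -0.39 for DUSP5, -0.30 for DUSP6, -0.27 for SPRY2, -0.27 for PHLDA1, -0.21 for ETV5, -0.14 for ETV4 and -0.14 for SPRED1. Adjusted p-values ran from 1.74e-14 for DUSP1 to 0.00900 for ETV4. Of all genes tested, 42.3% also differed between the constructs.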

How the results depend on the processing

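Each of the 30 differences of the 10 genes was recomputed under DESeq2, DESeq2 size factors, no filter, a mean of at least 50 counts, separate fits per pair of groups, a replicate block, and without each library in turn. Of 360 such values 349 kept their direction and side of the threshold, 6 became called, 3 lost their call and 2 changed sign. The sign changes were of values near 0 that were not called: leaving out libraries moved DUSP1 with shAHR#2 between -0.0057 (without shAHR#2 replicate 3) and 0.089, and SPRY2 with shAHR#3 between -0.087 and 0.021 (without pLKO-GFP replicate 2). Requiring an absolute log2 fold change of 1 as well, the counts of feedback genes called became 0 in each comparison, while those of all genes became 1691, 961 and 530 in place of 9390, 7771 and 6031. Leaving out single libraries moved the count lower with shAHR#3 between 0 and 1, the latter being SPRED1. With the replicate block, 7 genes were higher with shAHR#2, 8 were higher with shAHR#3, and 2 were higher and 7 lower between the constructs, as without it. Same-numbered libraries correlated at -0.05 to 0.08 in their deviations from group means, and differently numbered ones at -0.08 to 0.09. No shared effect of the replicate number was seen, which does not settle whether same-numbered libraries were handled together.

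Centring on a gene's chromosome or neighbours was added after the data were seen. Less the chromosome median, PHLDA1 with shAHR#3 became -0.046 and SPRY4 between the constructs -0.10. Less the median of neighbours within 1 Mb, SPRY2 became -0.37 with shAHR#2 and 0.12 between the constructs, where SPRY4 became -0.10, SPRED1 0.45 and PHLDA1 0.065. The same centring lowered called values by over 1.5 times for PHLDA1 with shAHR#2 (0.39 to 0.070), and with shAHR#2 and shAHR#3 for DUSP4 (0.52 to 0.23 and 0.46 to 0.25), ETV4 (0.35 to 0.18 and 0.21 to 0.065) and ETV5 (0.66 to 0.35 and 0.45 to 0.17), and ETV4 between the constructs went from -0.14 to -0.083. Less the chromosome median, such drops were seen for PHLDA1 (0.39 to 0.17), SPRY2 (0.24 to 0.11) and ETV4 (0.35 to 0.22) with shAHR#2 and for DUSP6 (0.39 to 0.22) and ETV4 (0.21 to 0.095) with shAHR#3. Values on chromosomes 5 and 10, whose medians were negative against the control, rose instead. DUSP5 went from 0.79 to 1.11 with shAHR#2 and from 0.40 to 0.55 with shAHR#3. With shAHR#3, DUSP1 went from 0.92 to 1.18 and SPRY4 from 0.16 to 0.41. With shAHR#2, where neither was called, DUSP1 went from 0.03 to 0.50 and SPRY4 from 0.05 to 0.53. SPRED1 with shAHR#3, not called at -0.07, became 1.60 less its neighbours. SPRY2 had only 2 such neighbours and SPRED1 only 4. The cause of these changes was not tested.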
